A study of Canis lupus familiaris with 6 samples.

Results

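Neutrophils carry their antimicrobial proteins ready-made in granules that are filled in a fixed order as the cell matures in the bone marrow. Azurophil granules come first and hold myeloperoxidase and elastase, specific granules follow with lactoferrin, lipocalin 2, cathelicidin and neutrophil collagenase, and gelatinase granules form last. The calgranulins are small calcium-binding S100 proteins that fill the cytosol of the mature cell. Transcription of most granule genes stops before the cell enters the blood, whereas S100 transcripts stay abundant in circulating neutrophils. The genes examined here were CAMP, MMP8, MMP9, LTF, LCN2, MPO, ELANE, S100A8, S100A9 and S100A12, which were taken by gene name from the deposited table of 31512 genes. Of the 10 names, 9 had a row. No row was named S100A9, but the gene ENSCAFG00000029470, which has no symbol in the file, was described there as that protein and is given beside the others.

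Whole blood RNA was sequenced from 3 control dogs and 3 CPP-Se dogs, all Beagles aged 1.5 years, with 1 library per dog. They came from a feeding experiment on healthy dogs that all received the same maintenance food. Every day the controls were given a 30 g snack without CPP-Se, a selenium and casein phosphopeptide product, and the other group a 30 g snack holding 0.03% of it. Blood was taken on day 30. Whole blood holds every circulating cell type, and the methods describe poly-A selection but no cell sorting and no globin depletion. Expression was in FPKM, the fragments of a gene scaled to its length and to the size of the library. Each dog had 6598173 to 8067034 reads on genes, and 8 hemoglobin genes took 36.6% to 55.9% of them. The lowest hemoglobin share was that of CPP-Se replicate 2, the library that also had the most reads on genes. The groups were compared on log2(FPKM + 1) for 9847 genes averaging 1 FPKM or more, by limma with Benjamini-Hochberg adjustment, two-sided. A gene was called at an adjusted p under 0.05 with a fold change of at least 1.5.

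Of the 9 genes, 7 passed the filter and none was called. The 7 tested genes showed separate patterns. CAMP was higher in all 3 CPP-Se dogs, and MMP9 was far higher in 2 of them and lowest of all 6 dogs in the other. LTF was lower in all 3 in FPKM as deposited, but its groups overlapped with FPKM at a common sum per library. MMP8, LCN2, S100A8 and S100A12 overlapped between the groups. Among all genes tested, 0.0305% were called (3 genes, OVGP1 and 2 without a symbol, all lower in the CPP-Se group). Unadjusted p-values below 0.05 belonged to CAMP (higher) and to LTF and S100A12 (lower), as they did to 6.87% and 9.1% of all genes tested in these directions, 16% in all. The groups did not overlap for CAMP (higher) and LTF (lower), while 10.4% and 12.6% of all genes tested did not overlap in these directions, 23% in all. CAMP and MMP9 had log2 fold changes above 0, 2 of 7 against 49.6% of all genes tested. The median of the 7 was -0.62, against -0.0043 over all genes tested. These shares come from few genes and are given as a description. CAMP passed the filter only through the CPP-Se dogs, so its place in these counts is not independent of its direction. In bulk blood, fewer cells of a type and less RNA per cell cannot be told apart. The study counted CAMP and MMP8 among its differentially expressed genes, by a count test on these same libraries. It chose both for RT-qPCR and reports that the trends there matched the sequencing.

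**Figure D1:**
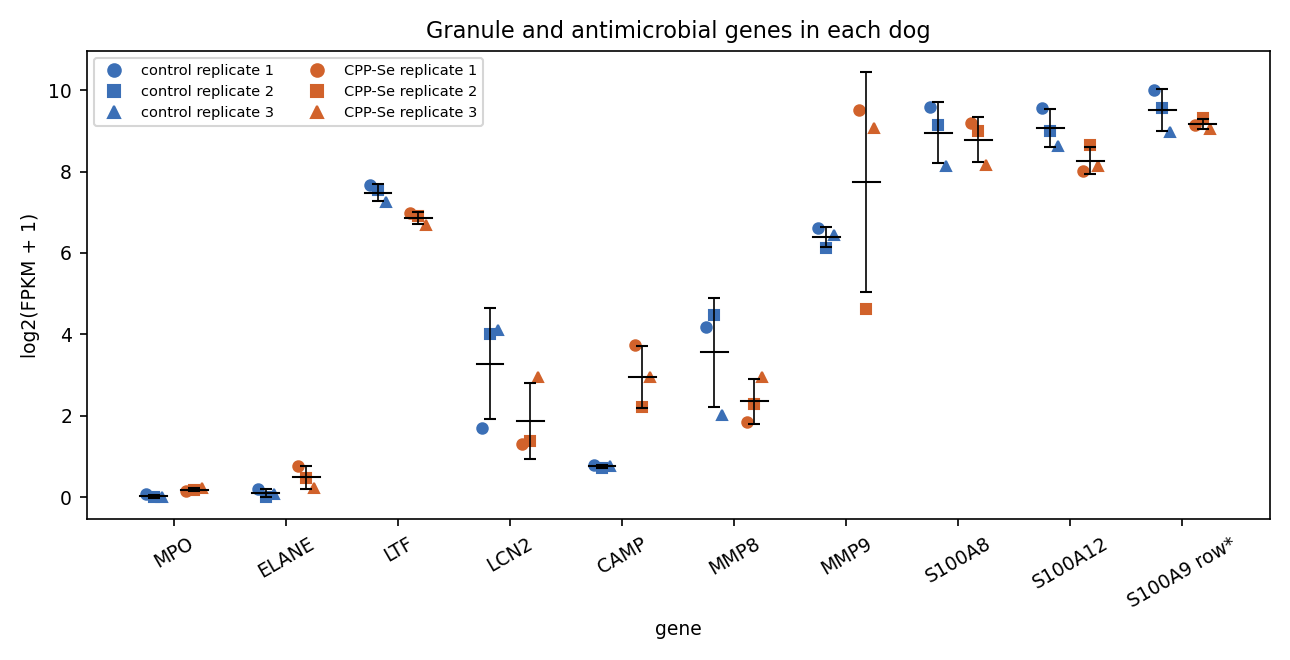
Expression of the 9 genes and of the unnamed S100A9 row (marked with an asterisk, ENSCAFG00000029470) as log2(FPKM + 1) in each of 6 dogs, with blue symbols for control and orange for CPP-Se dogs and a symbol for each replicate number. Horizontal black lines are group means and error bars are SD of the log2 values (n = 3). CAMP and LTF are the tested genes whose groups do not overlap, and the orange MMP9 points lie both above and below the blue ones.

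By mean FPKM over the 6 dogs, a scale that takes gene length into account, the order was S100A8 (499 FPKM), S100A12 (433 FPKM), MMP9 (257 FPKM), LTF (148 FPKM), MMP8 (9.13 FPKM), LCN2 (7.29 FPKM), CAMP (4.11 FPKM), ELANE (0.246 FPKM) and MPO (0.0794 FPKM). The unnamed S100A9 row stood above them all at 669 FPKM. Neighbours in this order often did not differ beyond the spread of dogs. In the control group S100A12 and S100A8 were at 553 ± 184 and 539 ± 247 FPKM (SD, n = 3 here and below), and MMP8 and LCN2 were at 13.9 ± 9.58 and 11.3 ± 7.85 FPKM. LTF exceeded MMP9 in every control dog, at 179 ± 26.3 against 83.6 ± 14.2 FPKM. In the CPP-Se group MMP9 exceeded LTF in replicates 1 and 3 but not in replicate 2.

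MPO and ELANE, the azurophil granule genes, were near the limit of detection. MPO (ENSCAFG00000017474, chromosome 9, 32927483 to 32937820) encodes myeloperoxidase, which makes hypochlorous acid in the phagosome. It had 1, 0 and 0 recovered reads in control replicates 1, 2 and 3, and 2, 5 and 3 reads in the dogs given CPP-Se. ELANE (ENSCAFG00000019669, chromosome 20, 57788062 to 57790932) encodes neutrophil elastase, a serine protease. Its reads were 2, 0 and 1 in the controls, against 9, 10 and 2 in the dogs given CPP-Se. In FPKM the CPP-Se dogs lay above the control dogs for both genes, but every control value rested on fewer than 3 reads, the floor taken here for a count of 0, as did MPO in CPP-Se replicate 1 and ELANE in CPP-Se replicate 3. That floor covers counting error only. For MPO the floor was 0.134 to 0.169 FPKM in the control dogs, against 0.112 to 0.176 FPKM measured in the dogs given CPP-Se. For ELANE the floor was 0.1902 to 0.2396 FPKM in the control dogs, and CPP-Se replicates 1 and 2 were above it at 0.716 and 0.382 FPKM, while replicate 3 was at 0.167 FPKM. With so few control reads no fold change is given for MPO or ELANE. The ELANE row lies inside an unnamed gene on the other strand (ENSCAFG00000046669, described as MED16, up to 9.75 FPKM), and the use of strand in the counting is not given in the sources used here.

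LTF, the iron-binding lactoferrin of specific granules (ENSCAFG00000013763, chromosome 20, 42231994 to 42263202), differed least from dog to dog relative to its level among the tested genes by the ratio of highest to lowest dog (1.96). Control replicates 1, 2 and 3 had 202, 185 and 151 FPKM, and the CPP-Se dogs, in the same order, 126, 119 and 103 FPKM. All 3 CPP-Se dogs were below the lowest control dog, by a margin smaller than the spread within the control group. The log2 fold change was -0.62 (standard error 0.20, adjusted p = 0.222 from limma, Benjamini-Hochberg). With FPKM brought to a common sum per library, with or without the hemoglobin genes, or quantile normalized, or scaled to neutrophil markers as described further on, the LTF groups overlapped. LTF was the most abundant of the specific granule genes LTF, LCN2, CAMP and MMP8, and had 1522 to 3848 reads per dog. LYZ, on a list read further on, was higher.

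MMP8 (ENSCAFG00000023335, chromosome 5, 29035820 to 29046808) encodes neutrophil collagenase, which cuts fibrillar collagen. Control replicates 1 and 2 had 17.2 and 21.4 FPKM, but control replicate 3 had 3.07 FPKM. The CPP-Se dogs had 2.59, 3.85 and 6.74 FPKM. Thus 2 of the 3 control dogs were above all CPP-Se dogs and the third lay among them, and the log2 fold change of -1.21 had a standard error of 0.62 (adjusted p = 0.392 from limma). Leaving out control replicate 3 moved it to -1.98 (adjusted p = 0.209), and leaving out control replicate 2 to -0.75.

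LCN2 (ENSCAFG00000020088, chromosome 9, 55328133 to 55332038) encodes lipocalin 2, which binds bacterial siderophores. Its FPKM were 2.26, 15.2 and 16.4 in the controls, against 1.48, 1.60 and 6.78 in the dogs given CPP-Se. The low control dog for LCN2 was replicate 1, whereas for MMP8 it was replicate 3, so these specific granule genes did not share a pattern within the control group. The ratio of LTF to LCN2 ranged from 9.19 in control replicate 3 to 89.5 in control replicate 1. For LCN2 the log2 fold change was -1.40 (standard error 0.70, adjusted p = 0.381 from limma). It was -2.19 without control replicate 1, the control dog that overlapped the CPP-Se dogs, and -0.98 without control replicate 3. LCN2 rested on few reads, between 8 and 111 per dog.

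CAMP (ENSCAFG00000012896, chromosome 20, 40790811 to 40792794) encodes cathelicidin, the precursor of an antimicrobial peptide that is cut free after the specific granules are emptied. It differed most between the groups on the log2 scale, and only 12 of all genes tested had a larger absolute log2 fold change. Recovered reads were 6, 5 and 7 in the controls, against 96, 59 and 50 in the dogs given CPP-Se. In FPKM the control dogs lay within 0.642 to 0.720, and the CPP-Se dogs had 12.3, 3.63 and 6.70. CAMP thus passed the filter of 1 FPKM through the CPP-Se dogs alone. Mean FPKM was 0.692 ± 0.0433 in the controls and 7.54 ± 4.39 with CPP-Se, a ratio of 10.9 that the log2(FPKM + 1) scale understates. The log2 fold change of 2.20 had a standard error of 0.36 (adjusted p = 0.138 from limma). CAMP was the only member called under any of several alternatives, except that MMP9 was called along with it when CPP-Se replicate 2 was left out. With FPKM at a common sum its adjusted p was 0.0118, where 0.122% of all genes were called and 0.0812% were called higher. Without CPP-Se replicate 2 it was 0.0483, where 0.142% were called and 0.0914% called higher. By limma-voom on recovered reads with quality weights per sample it was 0.0445, where 1.58% were called and 0.528% called higher. Over all alternatives its log2 fold change lay between 1.82 and 3.22, always with no overlap where that was computed, and its adjusted p reached 0.455 without control replicate 1.

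MMP9 (ENSCAFG00000009905, chromosome 24, 33274268 to 33281293) encodes gelatinase B, the enzyme after which gelatinase granules are named, which cuts denatured collagen and basement membrane collagen. The control dogs had 96.3, 68.3 and 86.1 FPKM. CPP-Se replicates 1 and 3 had 729 and 540.0 FPKM, and CPP-Se replicate 2 had 23.7 FPKM, so the highest and the lowest dogs of the series were both in the CPP-Se group, 30.8-fold apart. In CPP-Se replicate 1 the 11153 reads on MMP9 placed it above 99.5% of the genes tested. The log2 fold change of 1.35 had a standard error of 1.14 (adjusted p = 0.606 from limma), and 0.132% of all genes tested had a larger standard error. Without CPP-Se replicate 2 the log2 fold change was 2.91 (adjusted p = 0.0357). It was 0.46 without CPP-Se replicate 1 (adjusted p = 0.896) and 0.68 without CPP-Se replicate 3.

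TIMP1 encodes a secreted inhibitor that binds gelatinase B. Its FPKM were 94.7, 93.9 and 198 in the controls, against 96.5, 47.9 and 152 in the dogs given CPP-Se. CPP-Se replicate 2 was lowest of all dogs, as for MMP9, but the highest dog was control replicate 3. The ratio of MMP9 to TIMP1 was 1.02, 0.727 and 0.435 in the controls, then 7.56, 0.494 and 3.56 in CPP-Se replicates 1, 2 and 3.

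Some basophil and eosinophil markers were, like MMP9, highest in CPP-Se replicates 1 and 3 and lowest in CPP-Se replicate 2. Of the 5 tested, 3 had log2 fold changes above 0 and 2 under 0. The 7 markers with a row summed to 12.8, 10.5 and 21.0 FPKM in the control dogs, and to 50.1, 5.63 and 28.7 FPKM in CPP-Se replicates 1, 2 and 3. CPA3, a mast cell and basophil carboxypeptidase, had 0.338, 0.226 and 0.502 FPKM in the controls, against 6.71, 0.173 and 8.19 FPKM in the dogs given CPP-Se. It passed the filter only through CPP-Se replicates 1 and 3. GATA2, a transcription factor of that lineage, had 8.37, 0.309 and 6.83 FPKM in the dogs given CPP-Se and at most 2.56 FPKM in the control dogs. CCR3, a chemokine receptor, had 21.3 FPKM in CPP-Se replicate 1 but 4.83 FPKM in replicate 3, among the controls (3.79 to 6.20 FPKM). MS4A2, a chain of the IgE receptor, had 9.25 FPKM in control replicate 3 against 11.03 and 7.73 FPKM in CPP-Se replicates 1 and 3. IL5RA, an eosinophil and basophil receptor chain, was at 2.23 ± 0.944 FPKM in the controls and 0.992 ± 0.667 FPKM with CPP-Se, and EPX, the eosinophil peroxidase, had a mean of 0.264 FPKM. No marker with a row was at 0 in all dogs, and 2 of the 9 names had no row. The part of these cells in the MMP9 values was not tested.

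S100A8 (ENSCAFG00000017557, chromosome 7, 43501989 to 43541604) pairs with S100A9 to form calprotectin, which withholds zinc and manganese from microbes. Its FPKM were 769.9, 568 and 278 in the controls, against 580.0, 514 and 284 in the dogs given CPP-Se, so the lowest dogs were alike and the highest was a control dog. The log2 fold change was -0.18 (standard error 0.43, adjusted p = 0.881 from limma), and its sign turned with quantile normalization and on leaving out control replicate 1 or CPP-Se replicate 3. For its partner, the unnamed row ENSCAFG00000029470 (chromosome 7, 43566053 to 43570072), the FPKM were 1029, 757 and 505 in the controls, against 566, 631 and 527 in the dogs given CPP-Se. For that row the log2 fold change was -0.35 (standard error 0.30, adjusted p = 0.605), with -0.11 without control replicate 1 and -0.62 without control replicate 3. The ratio of S100A8 to this row was 0.748, 0.751 and 0.551 in the controls, against 1.02, 0.814 and 0.539 in the dogs given CPP-Se, so the groups overlapped.

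S100A12 (ENSCAFG00000023324, chromosome 7, 43554146 to 43555475), also known as calgranulin C, lies between those genes. It had 754, 510.2 and 395 FPKM in the controls, against 259, 399.8 and 278 FPKM in the dogs given CPP-Se. CPP-Se replicate 2 was just above the lowest control dog, and the other CPP-Se dogs were below all controls. The log2 fold change of -0.80 had a standard error of 0.30 (adjusted p = 0.270 from limma). Among the calgranulins the groups differed least in S100A8 and most in S100A12, and that difference between genes was not tested.

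**Figure D2:**
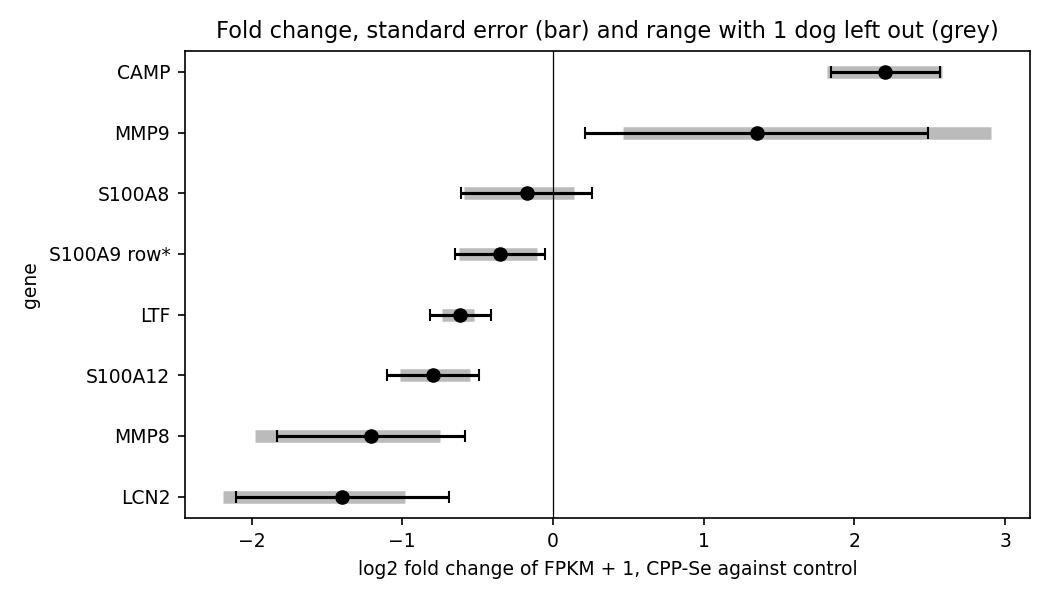
Log2 fold change of FPKM + 1 in the CPP-Se group against the control group for the 7 tested genes and the unnamed S100A9 row (asterisk). Points are estimates, black bars are standard errors, and grey bars span the values with each dog left out in turn. CAMP stays above 1.8 throughout, MMP9 spans 0.46 to 2.91, and the S100A8 bar crosses 0.

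The genes together accounted for 930 to 1843 FPKM per control dog and 1066 to 1712 FPKM per CPP-Se dog. S100A8 and S100A12 made up 72.4% to 82.7% of it in the controls, against 85.7% in CPP-Se replicate 2, but less in CPP-Se replicates 1 (49.0%) and 3 (45.9%). MMP9 supplied 4.99% to 9.26% in the control dogs, 2.22% in CPP-Se replicate 2, 42.6% in replicate 1 and 44.1% in replicate 3 of that group. The 4 specific granule genes summed to 171 to 223 FPKM in the controls, against 123 to 143 FPKM in the dogs given CPP-Se, and LTF made up 83.3% to 92.9% of it. Per summed FPKM of the library the groups overlapped, with CPP-Se replicate 2 (0.0423%) above control replicate 3 (0.0372%). The 9 genes likewise made up 0.203% to 0.387% of the summed FPKM in the controls, and 0.344%, 0.351% and 0.227% in CPP-Se replicates 1, 2 and 3.

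**Figure D3:**
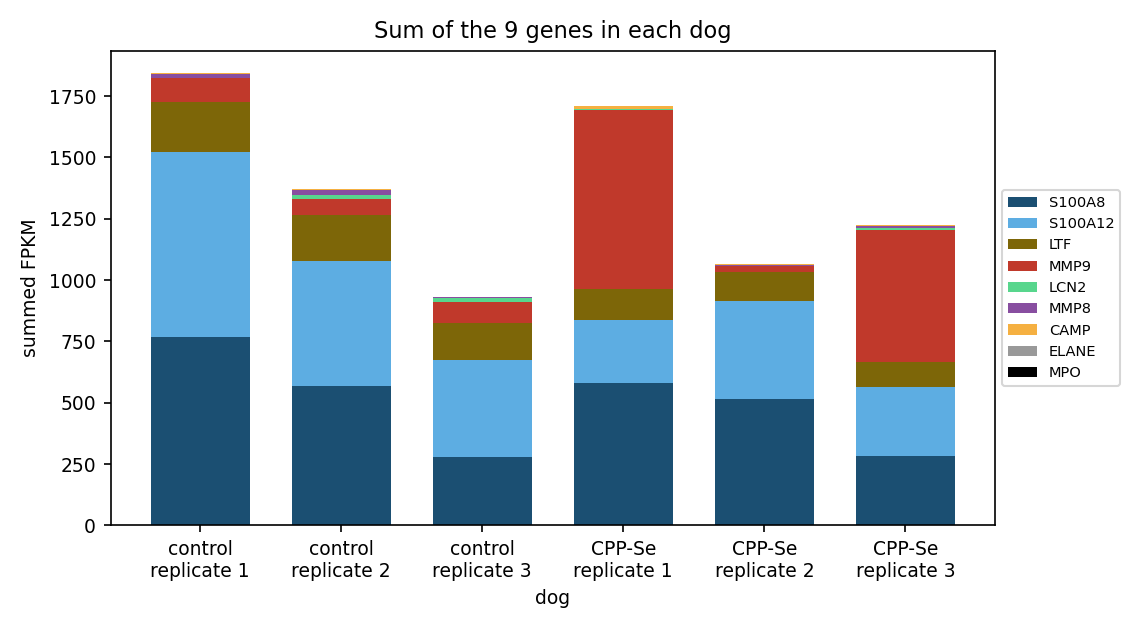
Stacked FPKM of the 9 genes in each of the 6 dogs, 1 bar per dog and 1 color per gene. S100A8 and S100A12 fill most of 4 bars, whereas MMP9 takes 42.6% and 44.1% of the bars of CPP-Se replicates 1 and 3.

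Markers of mature neutrophils had lower values in the CPP-Se group. The list held 15 genes, of which 10 had a row and all 10 were tested. All 10 had a log2 fold change under 0, with a median of -0.84 against -0.00433 over all genes tested, but none was called. Unadjusted p-values below 0.05 belonged to 8 of the 10, and 7 did not overlap between the groups, against 9.1% and 12.6% of all genes tested that were lower by these measures. CSF3R, CXCR2, TREM1, AQP9 and MXD1 are among the genes that the study itself picked from these libraries, so their direction is not independent evidence. The summed FPKM of the list was 1632 to 2059 in the controls, against 905 to 1290 in the dogs given CPP-Se. As a percentage of the summed FPKM of each library the groups overlapped, at 0.316% to 0.449% in the controls and 0.210%, 0.425% and 0.168% in CPP-Se replicates 1, 2 and 3. AQP9, a water and glycerol channel, had the lowest log2 fold change (-1.23, standard error 0.23, adjusted p = 0.138, or 0.0407 by limma-voom with quality weights), with 108 ± 21.4 FPKM in the controls against 45.7 ± 9.54 FPKM with CPP-Se. BST1, an ADP-ribosyl cyclase, had the highest (-0.10, standard error 0.27).

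With the mean log2(FPKM + 1) of these neutrophil markers made the same in every dog, every log2 fold change was raised by the same amount, so the order of the granule genes stayed as it was. The median over all genes tested became 0.76. Against that median LTF (0.15), S100A12 (-0.03), S100A8 (0.59), MMP8 (-0.44) and LCN2 (-0.63) were lower, and MMP9 (2.12) and CAMP (2.97) were higher. CAMP was called there (adjusted p = 0.0166 from limma), but so were 43% of all genes tested, and 42.9% were called higher.

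Other genes of each granule class were read from lists. Of 12 azurophil granule relatives, 7 had a row and were tested, none was called, and 6 of the 7 log2 fold changes were under 0 (median -0.28). BPI, which binds and kills Gram-negative bacteria, had 67.7 ± 16.03 FPKM in the controls against 35.2 ± 7.73 FPKM with CPP-Se, without overlap (log2 fold change -0.93, standard error 0.25, adjusted p = 0.179). PRSS57, a serine protease of the same granules, was at 125 ± 7.86 and 164 ± 108 FPKM (log2 fold change 0.19, and -0.31 without CPP-Se replicate 1). Both genes were far above MPO and ELANE in FPKM, so the low levels of MPO and ELANE did not extend to every gene of that granule class.

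Of 13 specific granule relatives, 10 had a row and 5 were tested, with 2 log2 fold changes above and 3 under 0 (median -0.05) and none called. LYZ, the lysozyme that cuts bacterial cell walls and that monocytes also make in quantity, had 533 ± 124 FPKM in the controls against 211 ± 34.9 FPKM with CPP-Se. Its log2 fold change was -1.32 (standard error 0.26, adjusted p = 0.138 from limma, or 0.0401 by limma-voom with quality weights), without overlap. The monocyte markers lay on the same side, since all 7 tested were under 0 (median -0.82) and 5 had an unadjusted p under 0.05, against 9.1% of all genes tested that were lower by this measure, with summed FPKM of 347 to 462 in the controls, against 228 to 261 in the dogs given CPP-Se. Per summed FPKM of the library they overlapped, since CPP-Se replicate 2 (0.0859%) lay among the controls (0.0671% to 0.101%). CD163, FCGR1A and VCAN of that list were picked by the study from these libraries. CD163 passed the filter only through the control dogs, with a mean of 1.70 FPKM against 0.454 FPKM with CPP-Se. CD14 had no row, and no monocyte marker with a row was at 0 in all dogs. The part of monocytes in the LYZ values was not tested. SLPI, an inhibitor of elastase with antimicrobial activity of its own, had 0.359 ± 0.107 FPKM in the controls against 2.57 ± 2.16 FPKM with CPP-Se, without overlap (log2 fold change 1.24, standard error 0.41, adjusted p = 0.222). Like CAMP, it passed the filter only through the CPP-Se dogs, and its log2 fold change was 0.78 without CPP-Se replicate 1. Control replicates 1, 2 and 3 had only 0.451, 0.241 and 0.383 FPKM, so depth limits this fold change and the lack of overlap. SLPI was highest in CPP-Se replicate 1 at 5.05 FPKM, the dog in which CAMP was highest too. OLFM4, a marker of specific granules in other species, was at 0 FPKM in all dogs.

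Of 12 relatives in gelatinase granules and secretory vesicles, 9 had a row and 5 were tested, of which none was called. The log2 fold changes of 4 were under 0 (median -0.55). QPCT, a glutaminyl cyclase, was lowest with 14.2 ± 1.75 FPKM in the controls against 8.47 ± 1.19 FPKM with CPP-Se (log2 fold change -0.69, standard error 0.19, adjusted p = 0.183), and CD177 was highest at 0.848 ± 0.374 and 1.60 ± 0.675 FPKM (log2 fold change 0.48, and 0.28 without CPP-Se replicate 2). With a control mean under 1 FPKM, CD177 passed the filter through the CPP-Se group. The summed FPKM of the list was 257, 257 and 177 in CPP-Se replicates 1, 2 and 3, without the wide gap that MMP9 had between replicate 2 and the others.

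Of 14 other S100 genes, 9 had a row and 4 were tested. None was called, and all 4 log2 fold changes were above 0 (median 0.38). Of these genes, S100A13 averaged 0.854 FPKM in the controls, under the filter, and 1.31 FPKM with CPP-Se. S100A11 had the lowest, at 0.05 (standard error 0.24), and -0.15 without CPP-Se replicate 3, with 398 ± 18.4 FPKM in the controls against 418 ± 105 FPKM with CPP-Se. The row named S100A5 had the highest, at 0.97 (standard error 0.59, adjusted p = 0.465), or 0.33 without control replicate 3 and 0.54 without CPP-Se replicate 1, but the file describes that row as S100A4, so its identity is uncertain.

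Of 16 protease inhibitors and partners of the granule proteins, 12 were tested, 10 of the 12 were under 0 (median -0.54), and none was called. TLR4, a receptor through which calprotectin acts, was lowest, with 22.5 ± 4.51 FPKM in the controls against 9.24 ± 2.31 FPKM with CPP-Se (log2 fold change -1.21, standard error 0.23, adjusted p = 0.138 from limma, or 0.0407 by limma-voom with quality weights). SERPINB1, the cytosolic inhibitor of elastase, was highest, with 21.9 ± 13.4 and 36.9 ± 8.53 FPKM (log2 fold change 0.96, standard error 0.53, adjusted p = 0.419). Its groups were divided by 30.7 against 31.9 FPKM only, and without control replicate 3 its log2 fold change was 0.29. Of these genes 5 had unadjusted p-values below 0.05, all of them lower in the CPP-Se group, against 9.1% of all genes tested, and TLR4 is one that the study picked from these libraries. Of the 9 transcription factors of granulocytes tested, CEBPB was lowest, at 200.4 ± 11.2 and 105 ± 4.98 FPKM (log2 fold change -0.93, standard error 0.18, adjusted p = 0.138, or 0.0407 by limma-voom with quality weights), without overlap. CEBPE, which drives the specific granule genes in the marrow, was highest, its log2 fold change being 0.58 (standard error 0.53), or -0.072 without CPP-Se replicate 1. Its FPKM were 2.48, 1.08 and 2.26 in the controls, against 9.51, 1.37 and 2.15 in the dogs given CPP-Se, so a single dog, CPP-Se replicate 1, stood out.

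**Figure D4:**
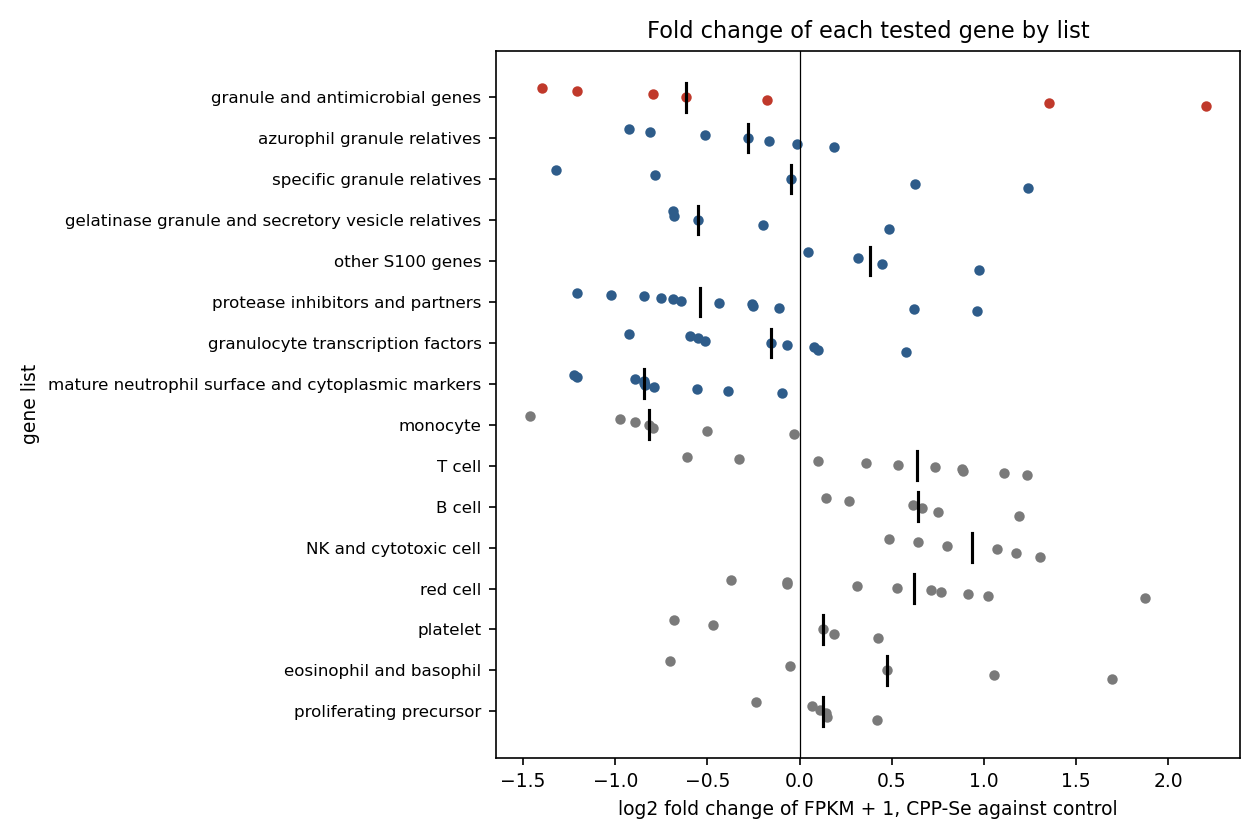
Log2 fold change of FPKM + 1, CPP-Se against control, of each tested gene, 1 dot per gene and 1 row per list, with black bars at list medians. Red dots are the 7 granule and antimicrobial genes, blue dots are the lists of related genes, and grey dots are markers of other blood cells. All 10 neutrophil and all 7 monocyte markers lie under 0, and all 6 B cell and all 6 NK and cytotoxic cell markers lie above 0. Some genes passed the filter through 1 group, such as CD163 through the controls and PAX5, a B cell marker, through CPP-Se replicate 2.

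Markers of other blood cells differed in both directions, and none was called in any of these lists. The median log2 fold changes were 0.64 for both T cells (10 genes tested) and B cells (6 genes), 0.94 for NK and cytotoxic cells (6 genes), 0.62 for red cells (10 genes), 0.13 for platelets (5 genes) and 0.13 for proliferating precursors (6 genes). CD4, which dog neutrophils carry on their surface besides T cells, was the lowest of the T cell list, with 1041 ± 204 FPKM in the controls against 678 ± 102 FPKM with CPP-Se (log2 fold change -0.61). Summed FPKM of the proliferating precursor genes was 46.5 to 56.1 in the controls, against 44.7 to 53.6 in the dogs given CPP-Se. The part of these cells in the levels of the granule genes was not tested.

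For each tested gene, the genes with the most similar profile were sought among 8130 other named genes, by the root mean square difference of log2(FPKM + 1) over the 6 dogs after each gene was centred on its own mean. CAMP, whose own profile had a root mean square of 1.19 about its mean, was most like CCL4, a chemokine (0.27), and CMA1, mast cell chymase (0.29). Both shared with CAMP that CPP-Se replicate 1 was highest and CPP-Se replicate 2 lowest within the CPP-Se group, which follows from how they were matched. CCL4, CMA1 and ECHDC3, named next, are also among the genes that the study picked from these libraries. MMP8 was most like ECHDC3 (0.17 against its own 1.03) and MT2A, a metallothionein (0.36). ECHDC3 had 49.5, 64.8 and 12.1 FPKM in the controls, against 12.4, 13.95 and 19.0 FPKM in the dogs given CPP-Se, the same split of the control group as in MMP8.

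MMP9 was most like MMP1, interstitial collagenase, and IL3RA, a receptor chain for interleukin 3 (both 0.64, against 1.71 for MMP9 itself). MMP1 had 132, 0.477 and 108 FPKM in the dogs given CPP-Se and 9.15 to 17.4 FPKM in the control dogs. IL3RA had 1.07, 0.202 and 1.39 FPKM in control replicates 1, 2 and 3, whereas CPP-Se replicates had 6.65, 0.0322 and 7.10 FPKM. LTF was most like CASP4 (0.06, against 0.34) and CLEC10A (0.07), both lower in each CPP-Se dog than in any control dog. LCN2 had no close match, since the nearest gene, TRAV21, still differed by 0.66. S100A8 was most like UQCRB (0.18), S100A12 like SREK1 (0.13) and the unnamed S100A9 row like NDUFB6 (0.09). These matches were picked from many genes over 6 dogs and are a description only.

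**Figure D5:**
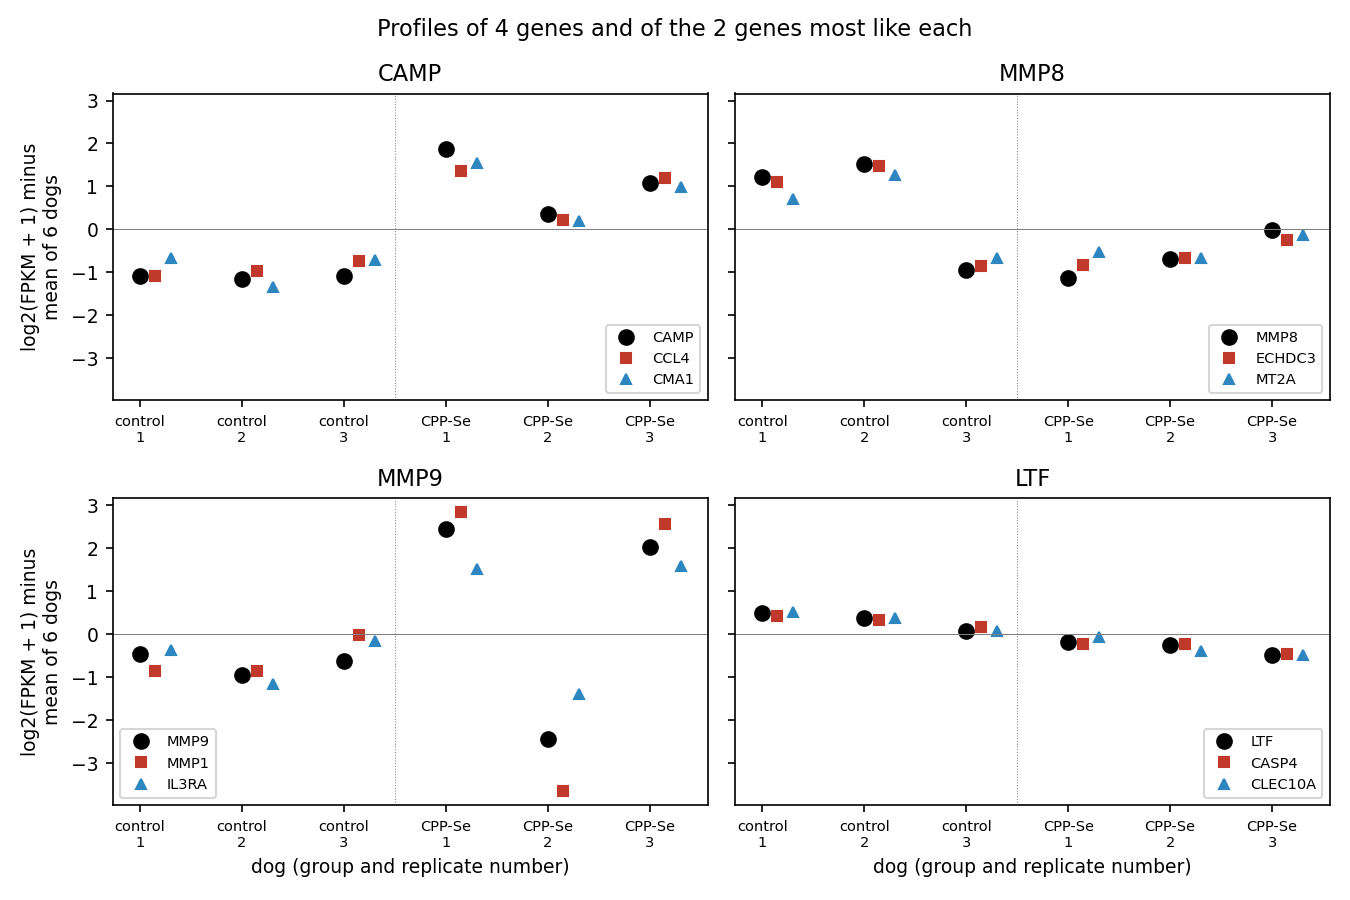
Log2(FPKM + 1) minus the mean of the 6 dogs for CAMP, MMP8, MMP9 and LTF (black circles) and for the 2 named genes most like each (red squares and blue triangles), in 1 panel per gene with the 6 dogs along the axis. The dotted line divides the groups. CAMP separates them, MMP8 has 2 high control dogs, MMP9 has 2 high CPP-Se dogs and 1 low one, and LTF is slightly lower in each CPP-Se dog.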

How the data were processed

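Whole blood RNA-seq of 3 control and 3 CPP-Se dogs was compared, grouped by sample title. Age, snack mass and CPP-Se content are design details from the methods of the study, not from the sample labels. The authors filtered reads (fastp 0.19.7, per the labels), aligned them to the Ensembl dog genome (HISAT2 2.0.5), and deposited FPKM per gene. featureCounts 1.5.0-p3 is named in the submitters' processing notes. The library size behind the FPKM and the use of strand are not given in the sources used here. Gene positions are those in the deposited table. Reads were recovered as FPKM times gene length divided by 1 step per library. In each library 100% of values came out whole, within 0.01 reads, or a matching relative rounding error at high counts. The library sizes implied were 0.882 to 1.65 times the reads on genes, highest in CPP-Se replicate 2. The FPKM of that dog are thus low for its reads on genes. They summed to 303449, against 458774 to 540009 in the other dogs.

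Genes averaging 1 FPKM or more were tested on log2(FPKM + 1), which lowers the fold change of low genes, in limma 3.58.1 (R 4.3.3) by lmFit and trended eBayes, all 6 dogs, no pairing, and Benjamini-Hochberg adjustment over all genes tested. The study tested counts, which FPKM are not. Figures were drawn with matplotlib 3.10.9 in Python 3.11.15. The fit was tested on simulated data. The members, gene lists and rules were chosen with earlier results of these data known. Genes named are the members, the highest and lowest of each related list, and the 2 most similar genes per member. Also named are TIMP1, CPA3, GATA2, IL5RA, CCR3, MS4A2, EPX, OLFM4, CD4, S100A13, PAX5 and genes noted as picked by the study or as called under an alternative. These further genes were chosen after their values were seen. Precision is set by 3 dogs per group. Alternatives were another pseudocount, filters, scalings, moderation, weights, a replicate block, limma-voom on recovered reads, and each dog left out. Nothing in the sources says how dogs were allotted to batches.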

Additional observations from a re-analysis of the deposited data

How the results depend on the processing

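The number of genes called over the whole table was 3. It was 0 with a pseudocount of 0.1 and without a filter, 1 with a filter of 5 FPKM and by limma-voom, 12 with a common sum of FPKM, 156 by limma-voom with quality weights per sample and 4238 with scaling to the neutrophil markers, and between 0 and 14 with a dog left out. With the replicate block it was 1. The deviations of dogs with the same number were little correlated (0.0165, -0.0900 and -0.0433 over the genes tested). Those of dogs with different numbers spanned -0.0783 to 0.112. These values cannot show whether dogs shared a batch.

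Of the granule and antimicrobial genes, 1 (CAMP) was called with a common sum, with scaling to the neutrophil markers and by limma-voom with quality weights per sample, and between 0 and 2 were called with a dog left out. The count without overlap between the groups was 4 without a filter, where MPO and ELANE enter, and 1 with a filter of 5 FPKM, where CAMP leaves, with a common sum with or without hemoglobin genes, quantile normalization or scaling to the neutrophil markers, and between 2 and 4 with a dog left out. It was not computed for limma-voom. The share of all genes tested without overlap was computed for the main setting only (23%), so the counts under other settings have no share beside them. Of the related lists, 0 genes were called, except 7 with scaling to the neutrophil markers, where 43% of all genes were called, and 9 by limma-voom with quality weights per sample, where 1.58% were (AQP9, CEBPB, CXCR2, LYZ, MXD1, SERPINA1, SRGN, TLR4 and TREM1).

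Scaling to the neutrophil markers raised every log2 fold change alike (median over all genes 0.76), which by construction turned the log2 fold change of LTF to 0.15, of S100A8 to 0.59, of ENSCAFG00000029470 to 0.42, of QPCT to 0.082 and of BST1 to 0.67. S100A8 also turned with quantile normalization (0.12), and without control replicate 1 or CPP-Se replicate 3 (0.14 in each), and was -0.59 without control replicate 3. PRSS57 turned without CPP-Se replicate 1 (-0.31), and reached 0.58 without CPP-Se replicate 3, and CEBPE turned without CPP-Se replicate 1 (-0.072) and reached 1.00 without CPP-Se replicate 2. S100A11 turned with array weights (-0.0088) and without CPP-Se replicate 3 (-0.15, against 0.20 without CPP-Se replicate 2), and BST1 without control replicate 1 (0.04) or CPP-Se replicate 2 (0.069), with -0.29 as its lowest such value, without CPP-Se replicate 3. MMP8, LCN2, S100A12, MMP9 and CAMP kept their sign under the 15 alternatives that give another log2 fold change, and the others leave it as it is by construction. A common sum of FPKM moved the median log2 fold change of all genes to 0.13. Causes were not tested beyond what each setting leaves out. Depth limits MPO, ELANE, LCN2 and the control values of CAMP, which rest on few reads, and also the low control values of SLPI. With 3 dogs per group every comparison is limited.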

Other observations

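Defensins, the other large family of antimicrobial peptides, were barely measured in these blood libraries. Of 33 rows whose description names a defensin, 30 were at 0 FPKM in all 6 dogs, and the highest value of the others was 0.689 FPKM. Of all genes in the table, 47.3% were at 0 FPKM in all dogs.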
